A study of Mus musculus with 15 samples.

Results

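The basement membrane genes described here are 10 genes: Col4a1, Col4a2, Lama1, Lamb1, Lamc1, Nid1, Nid2, Hspg2, Fn1 and Sparc. They were listed by symbol and not by a cut on their measured values, but with earlier results of these data known. They are 10 of 30534 features counted, and all 10 were found in each of the 11 transcript libraries and passed the filter on low counts in every comparison below. Frozen mouse embryo tissue of embryonic day 10 (E10), 11 (E11) and 12 (E12) was cut thin, and a grid of barcodes gave each small square of a section, a pixel, its own transcript counts. With pixels 50 µm wide there were 3 libraries of E10 and 1 of E12, with pixels 25 µm wide 1 of E10 and 2 of E11, and with pixels 10 µm wide 2 each of E10 and E11. Tags of 22 antibodies were counted on 4 of the E10 sections. No genotype, strain or treatment is given for any group, nor are the embryo and the body region behind each section, so that p-values measure the spread between sections, which may be technical.

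Basement membranes are thin sheets of extracellular matrix under epithelia and endothelia and around muscle. Laminins, trimers of an alpha, a beta and a gamma chain, and type IV collagen form its separate networks, and nidogens and perlecan join them. In the embryo, laminin made of the alpha 1, beta 1 and gamma 1 chains is the early form, and vessel walls are rich in type IV collagen. Col4a1 and Col4a2 encode the chains of the most widespread type IV collagen. Lama1, Lamb1 and Lamc1 encode laminin chains, Nid1 and Nid2 the nidogens, and Hspg2 perlecan, a heparan sulfate proteoglycan. Fn1 encodes fibronectin, a cell-adhesive glycoprotein of mesenchymal and vascular matrix, and Sparc a collagen-binding secreted protein.

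Col4a1 and Col4a2 lie head to head on chromosome 8, and the stretch where their transcripts start is shown because this pair of members followed each other most closely from pixel to pixel. In RefSeq (GRCm38.p6) the start sites are 21 bases apart and the first bases of the transcripts overlap, so that reads there cannot be assigned to a gene where strand was not used. Of the 10 genes, 6 had an entry in the RefSeq promoter table (Col4a1, Col4a2, Lamb1, Nid1, Hspg2 and Sparc). Nid1 and Hspg2 are shown because they, with the collagen pair, were the members most raised in vessel-rich pixels. Their stretches end just before the gene starts of GENCODE M21 (13437551 and 137468769). The start sites of the promoter table lie farther downstream (13437602 and 137468803). Sequences are of the plus strand, and capitals mark a CCAAT or GC box (GGGCGG) on either strand.
Col4a1 and Col4a2 start sites, chr8:11312801-11312830: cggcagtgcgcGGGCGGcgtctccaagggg
Nid1 upstream of its start, chr13:13437352-13437550: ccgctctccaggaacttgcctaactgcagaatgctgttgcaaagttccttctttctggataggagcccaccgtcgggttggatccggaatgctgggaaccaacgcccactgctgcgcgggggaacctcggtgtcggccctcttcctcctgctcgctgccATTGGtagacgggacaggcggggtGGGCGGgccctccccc
Hspg2 upstream of its start, chr4:137468553-137468768: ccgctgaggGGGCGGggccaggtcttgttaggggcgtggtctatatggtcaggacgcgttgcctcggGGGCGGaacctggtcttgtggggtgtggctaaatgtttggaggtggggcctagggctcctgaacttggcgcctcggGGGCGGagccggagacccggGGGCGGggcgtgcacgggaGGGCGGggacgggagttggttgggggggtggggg

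In the whole promoter windows of 300 bases, a CCAAT on either strand was found for 4 of the 6 genes (Col4a1, Col4a2, Lamb1 and Nid1), against 37.4% of all 32851 windows in the table. A GC box was found for 5 of the 6 (not Sparc), against 35.7% of all windows, with 5 matches for Hspg2. TATAAA was found for none of the 6 and in 13.6% of all windows. The windows of Col4a1 and Col4a2 share 78 bases. The GC box shown at their start sites lies in this overlap, is the only 1 of Col4a1 and was counted for both genes. The 6 windows are thus not all separate. A match is a run of letters and not a measured binding site.

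Tissue pixels numbered 829 to 2271 per library and held 1563489 to 11998765 counts, with a median of 843.5 to 11332 counts per pixel. All levels below are CPM, a gene's share of the counts in tissue pixels scaled to 1000000. The sections held different tissues: the summed level of 10 heart markers ran from 25.3 to 6714 CPM, of 8 neural markers from 145 to 2190 CPM and of 8 liver markers from 10.6 to 3777 CPM. The 10 vessel markers were more even, at 186 to 397 CPM, with all 10 detected in each library. The 6 markers of the parietal yolk sac, an extraembryonic tissue that makes much basement membrane, were at 32.1 to 69.1 CPM in sum.

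Together the 10 genes gave 1444 to 2388 CPM per library. Sparc, Col4a1 and Fn1 had the highest levels, with medians over the 11 libraries of 467, 379 and 306 CPM, and lay above at least 95% of the detected genes in every library. Per kilobase of exon in GENCODE M21, Sparc stayed first (a median of 123 CPM per kilobase), before Col4a1 (50.7) and Fn1 (26.2). Col4a2 followed at 15.97 CPM per kilobase, and the other 6 genes lay between 4.72 (Hspg2) and 9.87 (Nid1). Whether counts scale with exon length was not tested, so values per kilobase may understate the long genes.

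Type IV collagen was present in every section. Col4a1 was at 322, 408 and 361 CPM in the 3 E10 50 µm libraries, 427 at E10 25 µm, and 457 and 379 at E10 10 µm. At E11 it was at 559 and 317 CPM at 25 µm and 478 and 196 CPM at 10 µm, and at E12 at 374 CPM. The E11 libraries held both the highest and the lowest level, so the spread within E11 covered all values at E10 and E12. Col4a2 was lower than Col4a1 throughout, at 56.2 to 145 CPM. The ratio of Col4a1 to Col4a2 counts had a median of 3.49 and ranged from 2.27 (E10 50 µm replicate 1) to 5.71 (E11 25 µm replicate 1).

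The laminin chains differed in how they moved across libraries. Lama1 was at 86.6, 81.0 and 87.0 CPM in the E10 50 µm libraries, 47.3 at E10 25 µm, and 81.0 and 86.6 at E10 10 µm. It was at 72.6 and 66.8 CPM at E11 25 µm, 58.0 and 32.5 at E11 10 µm, and 18.0 at E12. Thus 5 of 6 E10 libraries lay above every E11 library, and the E12 library lay below all others. Lamc1 had the narrowest range of the 10 genes over these libraries, at 34.5 to 54.7 CPM. It was at 34.5 to 46.7 CPM in the 6 E10 libraries and 49.8 to 54.7 in the 4 at E11. Lamb1 was at 42.7 to 118 CPM at E10, 66.7 to 95.2 at E11 and 156 at E12.

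Of the linkers, Nid1 ranged from 45.9 to 138 CPM and Nid2 from 20.4 to 63.96 CPM. Hspg2 was at 31.8 to 68.4 CPM in the 6 E10 libraries, 77.5 to 133 in the 4 E11 libraries, and 67.5 at E12. Fn1 was at 219 to 323 CPM at E10, 227 to 461 at E11 and 465 at E12. Sparc was at 246 to 573 CPM at E10 and E11 and at 987 CPM at E12, the highest level of any member.

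**Figure D1:**
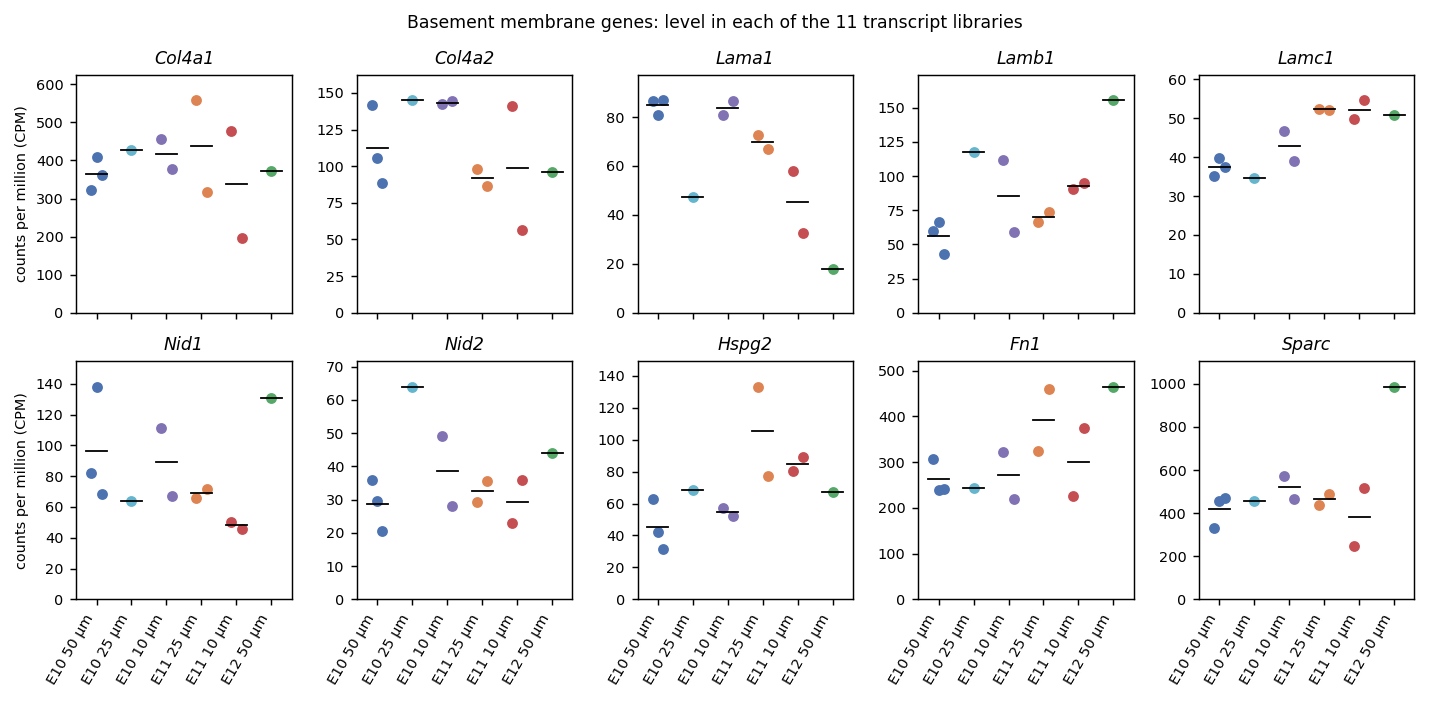
Level of each gene (y axis, CPM from 0) in the 11 libraries, by group (x axis). Each point is a library and each black line is the mean of the libraries in its group. Lama1 stands at 18.0 CPM at E12 and at 81.0 to 87.0 CPM in the 3 E10 50 µm libraries, and Sparc at 987 CPM at E12.

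Between stages at the same pixel width, Lama1 fell from a mean of 84.9 ± 3.33 CPM (SD, n = 3) in E10 50 µm to 18.0 CPM in the E12 50 µm library, and no other of the 10 genes passed the test there. The log2 fold change was -2.28 ± 0.39 (SE), with an adjusted p of 0.011 in edgeR's quasi-likelihood test over 18233 genes. Of all genes, 0.214% were called lower in this comparison. E12 is a single library, assumed to vary like the other groups. Lamb1 stood at 156 CPM against 42.7 to 66.0 CPM (adjusted p = 0.068) and Sparc at 987 against 333 to 468 CPM (adjusted p = 0.18). By DESeq2, an alternative count test, Lamb1 also passed (adjusted p = 0.028), as it did in edgeR without the filter on low counts (0.0048). With 1 library left out, Lamb1 passed in edgeR only where that library was 1 of the 4 at 10 µm (log2 1.42 to 1.44). It did not pass without E10 50 µm replicate 1 (log2 1.46, adjusted p = 0.17), replicate 2 (1.62, 0.072) or replicate 3 (1.26, 0.24). The E12 section held fewer neural marker counts (402 against 1444 to 2190 CPM) and more mesenchyme (3341 against 658 to 1228 CPM), liver (3713 against 11.0 to 14.5 CPM) and red cell marker counts (89594 against 16540 to 31829 CPM) than the E10 50 µm sections. The part of these differences in the fall of Lama1 was not tested.

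From E10 to E11, over both shared widths, 0 of the 10 genes passed the test, where 3.60% of all genes did. At an unadjusted p under 0.05 there were 2 of the 10, where 4217 of all 18233 genes were. These were Hspg2 with a log2 change of 0.73 ± 0.29 (adjusted p = 0.16) and Lamc1 with 0.54 ± 0.22 (adjusted p = 0.17). At 10 µm alone Lama1 went from 81.0 and 86.6 to 58.0 and 32.5 CPM (log2 -0.92 ± 0.30, adjusted p = 0.11). At 25 µm, with 1 E10 library, the Lama1 values went the other way, from 47.3 to 72.6 and 66.8 CPM (adjusted p = 0.39). None of the 10 passed at 10 µm (3.33% of all genes), at 25 µm (0.455%), or between widths at E10 (0.110%) or E11 (2.07%). At an unadjusted p under 0.05 these 4 comparisons had 2, 1, 0 and 1 of the 10. Of all 18233 genes they had 3682, 2516, 1978 and 2094, in the same order.

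To see which tissues the genes follow, pixels rich in the markers of a tissue were compared with the other tissue pixels of the same library. A pixel was called rich when at least 2 markers were detected and their summed share was in the top 10% of the library, and a library entered with 30 or more such pixels. Counts were summed over rich and over other pixels, and the sums were tested with the library as a block, so that the library and not the pixel is the replicate. None of the 10 genes is in a marker list. A pixel holds several cells, so a higher level may reflect more cells of a type or more RNA per cell, which cannot be told apart here.

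Vessel-rich pixels had higher levels of all 10 genes, where 6.81% of 10346 tested genes were called higher. The class rests on 10 endothelial genes and 39 to 198 pixels in each of the 11 libraries, in which the markers summed to 698 to 2559 CPM against 150 to 299 CPM elsewhere. Col4a1 was at 542 to 2338 CPM in vessel-rich pixels (median 923) and at 179 to 453 CPM in the others (median 346). It was higher in 11 of 11 libraries, and the 2 ranges did not overlap. The fold change was 2.98 (log2 1.57 ± 0.15, adjusted p = 4.1e-05). Col4a2 rose 2.63-fold (log2 1.39 ± 0.14, adjusted p = 1.9e-05), also in 11 of 11 libraries.

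Hspg2 rose 2.37-fold and Nid1 2.28-fold in vessel-rich pixels, each in 11 of 11 libraries. Perlecan transcripts were at 59.9 to 430 CPM against 29.8 to 116 CPM. Nid1 was at 48.5 to 339 CPM against 45.8 to 126 CPM, with its smallest difference in E11 10 µm replicate 2 (48.5 against 45.8 CPM, from 6 counts). The other members rose less. Lamb1 rose 1.97-fold, Sparc 1.76-fold, Fn1 1.74-fold, Nid2 1.62-fold and Lamc1 1.53-fold. Nid2 lost its call without E10 50 µm replicate 1 and with DESeq2, which called 9 of the 10. The smallest rise was that of Lama1, 1.38-fold (log2 0.47 ± 0.11, adjusted p = 0.0017), in 10 of 11 libraries, from a median of 73.6 to 99.8 CPM. Lama1 lost its call without the filter on low counts and with the top 20% of pixels.

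Set beside Lama1 library by library, the log2 ratio of vessel-rich to other pixels was larger for Col4a1 in 10 of 11 libraries, by a mean of 1.03 ± 0.81 (SD, n = 11). For its laminin partners the mean differences were smaller than their SD. Lamb1 minus Lama1 was 0.33 ± 0.96, above 0 in 8 of 11 libraries, and Lamc1 minus Lama1 was -0.16 ± 1.119, above 0 in 6 of 11. Lama1 was singled out after its values were seen, so these differences are a description with no test.

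**Figure D2:**
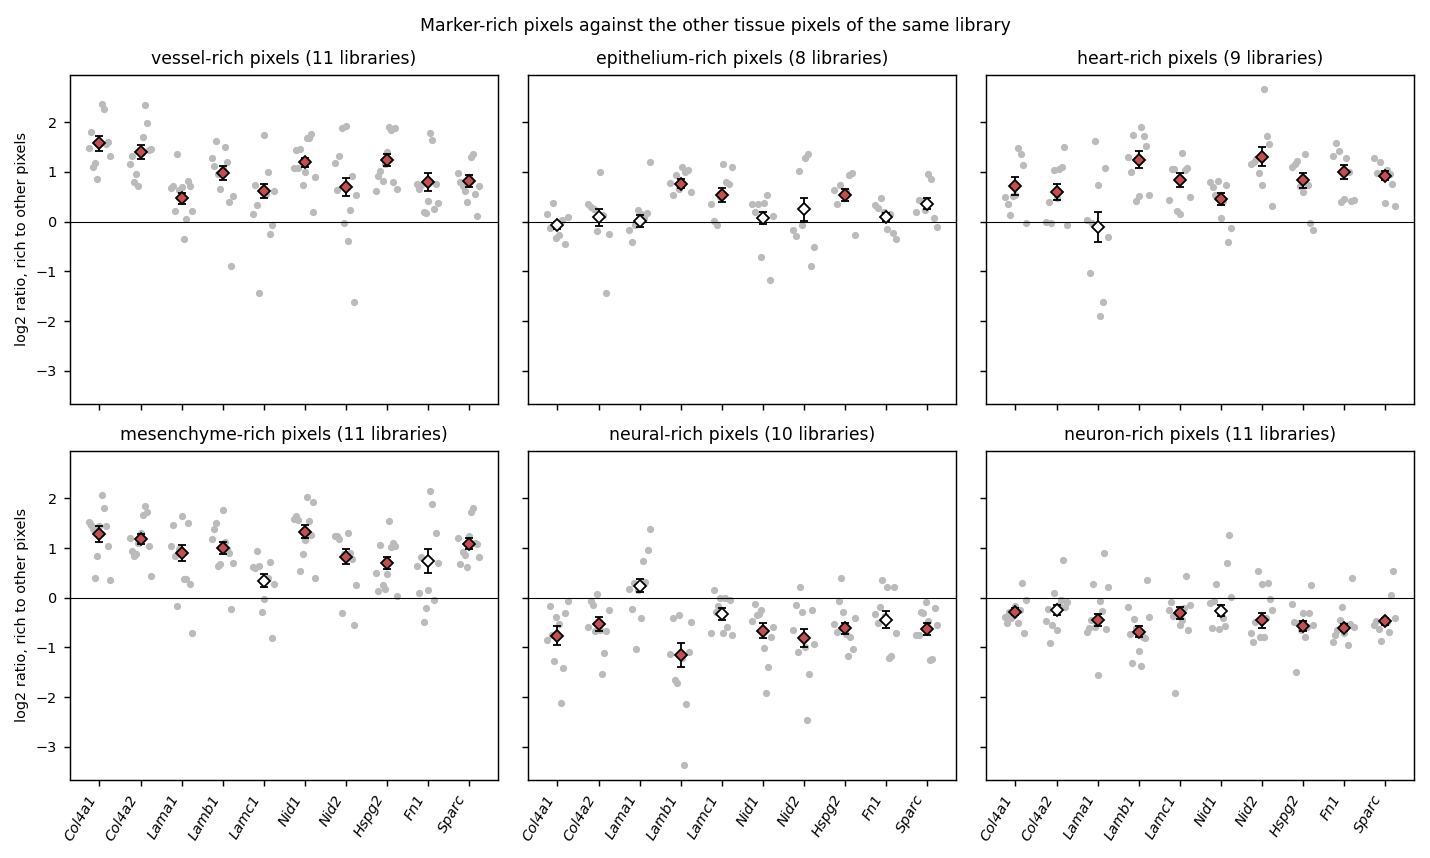
Log2 ratio of each gene between marker-rich and other tissue pixels (y axis) for 6 tissues. Grey points are libraries, diamonds are the fitted log2 fold changes with their SE, and red diamonds passed the adjusted threshold of 0.05. All 10 diamonds are red for vessel-rich pixels, 3 for epithelium-rich pixels, and those of neural-rich pixels lie below 0 except for Lama1.

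Other cell types moved with the vessel-rich pixels. Red cell markers had a median of 45391 CPM there against 21398 CPM in the other pixels, mesenchyme markers 1910 against 1130 CPM, and mural markers (smooth muscle and pericyte genes) 375 against 203 CPM. A median of 13.5% of vessel-rich pixels were also mesenchyme-rich, against 9.8% of all tissue pixels, and rich pixels had the lower median count per pixel in 6 of 11 libraries. With mesenchyme-rich pixels left out, 9 of the 10 genes stayed higher, with Col4a1 at log2 1.52 ± 0.15, and Lamc1 did not pass (log2 0.52, adjusted p = 0.086). With only pixels at or above the library's median depth, 9 of 10 stayed higher, and Lama1 did not pass (log2 0.37, adjusted p = 0.16). The part of red and mural cells was not tested.

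An antibody gave a separate view of the vessels at E10. In the 10% of pixels with the highest share of the Panendothelial cell antigen tag, on 4 sections, all 10 genes were higher, where 3.47% of 10504 genes were. Col4a1 was at 826, 739, 819 and 855 CPM in these pixels and at 283, 330, 393 and 338 CPM in the others, with no overlap (log2 1.35 ± 0.08, adjusted p = 7.3e-17). Nid1 rose by log2 1.29, Lamb1 by 1.22 and Col4a2 by 1.15. Lama1 was among them, at log2 0.86 ± 0.14, and Fn1 had the smallest change, log2 0.38 ± 0.10 (adjusted p = 0.018), in 3 of 4 sections. A median of 24.7% of antibody-high pixels were vessel-rich by transcripts, against 7.3% of all tissue pixels. Antibody-high pixels were the shallower class on 4 of 4 sections, and with only the deeper pixels Fn1 (log2 0.31, adjusted p = 0.18) and Lamc1 (0.69, 0.12) did not pass. Fn1 kept its call in 6 of 11 settings and lost it without E10 50 µm replicate 1 or replicate 3, Nid2 lost its call without replicate 1 and Lamc1 without replicate 3. Red cell markers were higher in the antibody-high pixels too (44821 against 19548 CPM), as were mesenchyme markers (1708 against 881 CPM).

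The levels of some members were graded around the vessels. Pixels touching a vessel-rich pixel had a median Col4a1 level of 509.6 CPM, between 923 CPM in the rich pixels and 306 CPM farther away, and this order held in 11 of 11 libraries. Col4a2 (264, 145 and 84.9 CPM) and Hspg2 (118, 78.5 and 60.01 CPM) kept the order in 11 of 11 libraries as well, and Sparc in 10 of 11. The order held in 9 of 11 libraries for Lamb1 and Fn1, in 8 for Nid1 and in only 6 for Lamc1 and Nid2. Lama1 kept it least often: its medians were 99.8, 56.8 and 72.5 CPM, and the touching pixels lay above the farther ones in only 4 of 11 libraries. These values are a description, and transcripts that spread between neighbouring pixels were not measured.

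**Figure D3:**
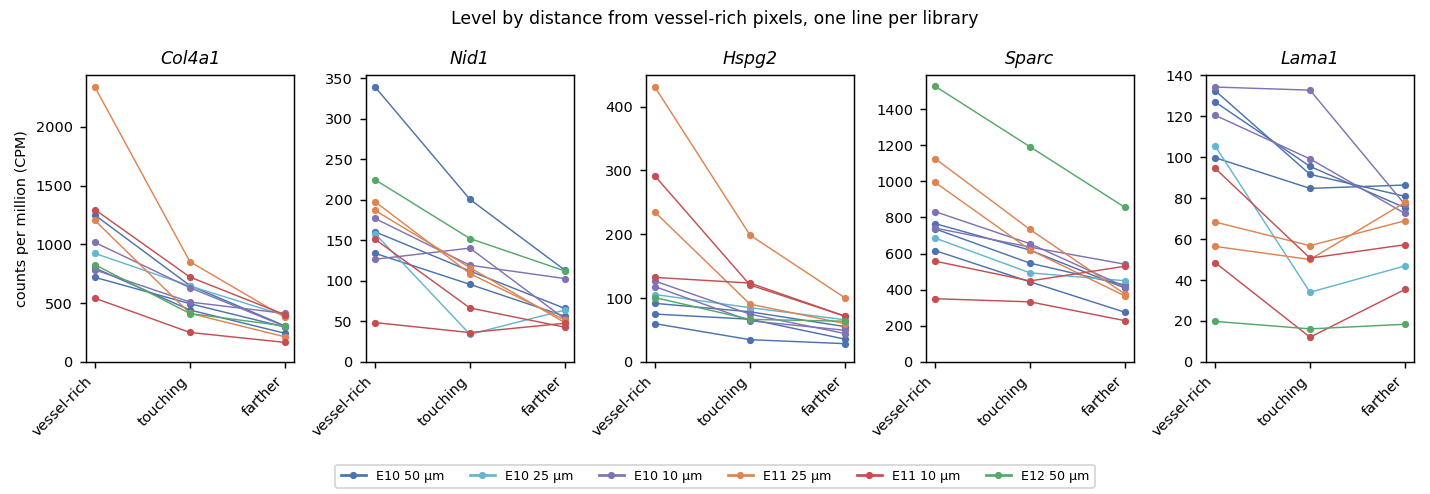
Level (y axis, CPM from 0) of 5 genes in vessel-rich pixels, in pixels that touch one, and in pixels farther away (x axis), with a line for each library coloured by group. The Col4a1 and Hspg2 lines fall at each step in all 11 libraries, and the Lama1 lines do so in 4.

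Mesenchyme-rich pixels, chosen by 8 genes of loose embryonic connective tissue, had higher levels of 8 of the 10 genes (8.94% of 10207 genes were called higher). Nid1 rose most (log2 1.33 ± 0.13), followed by Col4a1 (1.28 ± 0.16), Col4a2 (1.19 ± 0.10) and Sparc (1.09 ± 0.11), each in 11 of 11 libraries. Sparc was at 482 to 1641 CPM in these pixels (median 853) and at 227 to 924 CPM in the others (median 436). Lama1 rose by log2 0.90 ± 0.16 (median 142 against 71.4 CPM). Fn1 (log2 0.74 ± 0.25, adjusted p = 0.074) and Lamc1 (0.34 ± 0.13, adjusted p = 0.070) did not pass. All 8 remained called with vessel-rich pixels left out. Mural markers were at a median of 394 CPM in these pixels against 201 CPM, and their part was not tested. Mesenchyme-rich pixels were the shallower class in 11 of 11 libraries.

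Set directly against each other, vessel-rich and mesenchyme-rich pixels differed in 3 of the 10 genes, where 3.25% of 6653 genes differed. This comparison was added after the data were seen. Hspg2 was higher in vessel-rich pixels (log2 0.61 ± 0.14, adjusted p = 0.0026, 9 of 11 libraries). Sparc (log2 -0.29 ± 0.07, adjusted p = 0.0031, lower in 10 of 11) and Lama1 (-0.53 ± 0.14, adjusted p = 0.020, lower in 8 of 11) were lower there. Col4a1 (0.30 ± 0.12, adjusted p = 0.24) and Nid1 (-0.16 ± 0.11, adjusted p = 0.61) did not pass the adjusted test. With only the deeper pixels none of the 10 passed, and Lama1 lost its call without E10 50 µm replicate 2 or 3 or E10 10 µm replicate 2.

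Heart-rich pixels had higher levels of 9 of the 10 genes (7.04% of 11099 genes were called higher), in 9 libraries with enough pixels. The order differed from that in vessel-rich pixels. Nid2, a nidogen, rose most (2.47-fold, log2 1.31 ± 0.20), from 19.3 to 60.9 CPM in other pixels to 45.1 to 143 CPM. Lamb1 rose 2.37-fold and Fn1 2.01-fold, with Fn1 at 311 to 867.7 CPM against 205 to 451 CPM, and both rose in 9 of 9 libraries. Sparc rose 1.90-fold in 9 of 9. Col4a1 rose less, 1.64-fold (adjusted p = 0.029), and Col4a2 1.51-fold (adjusted p = 0.030). Lama1 did not pass: its log2 change was -0.11 ± 0.30, and single libraries ran from -1.91 (E11 25 µm replicate 1) to 1.62 (E10 25 µm).

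Heart-rich pixels were the shallower class in 8 of 9 libraries. With only the deeper pixels 6 of the 9 members kept their call, and Col4a1 (log2 0.76, adjusted p = 0.16), Col4a2 (0.61, 0.076) and Nid1 (0.53, 0.064) did not. Leaving out 1 library also ended the call of Col4a2 (E10 50 µm replicate 2, E10 25 µm or either E11 25 µm library), of Nid1 (any E10 50 µm library or E11 25 µm replicate 2) and of Col4a1 (E11 10 µm replicate 2). Mural markers were at a median of 854 CPM in heart-rich pixels against 242 CPM, higher in 9 of 9 libraries, and vessel markers at 437 against 280 CPM. Their part in these rises was not tested. Against vessel-rich pixels, the heart-rich pixels had less Col4a1, Col4a2 and Nid1: 3 of the 10 genes were higher in vessel-rich pixels, where 1.44% of 7145 genes were. Col4a1 had medians of 853 and 479 CPM (log2 0.89 ± 0.11, adjusted p = 4.2e-06), Col4a2 differed by log2 0.82 ± 0.14 and Nid1 by 0.74 ± 0.12, each in 9 of 9 libraries (for Col4a2 the smallest difference was 0.00). Nid2 lay the other way, at medians of 44.7 and 76.9 CPM, but did not pass (log2 -0.72 ± 0.32, adjusted p = 0.33). With only the deeper pixels 1 of the 3, Nid1, passed.

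Epithelium-rich pixels differed in fewer members. Of the 10 genes 3 were higher, where 1.55% of 11405 genes were, in 8 libraries. Lamb1 was at 96.0, 91.6, 77.2 and 170 CPM in the E10 libraries, against 56.2, 63.9, 40.6 and 108 CPM in the other pixels. At E11 it was at 133, 138 and 171 CPM against 62.9, 69.8 and 84.1 CPM, and at E12 at 224 against 149.8 CPM. It was thus higher in 8 of 8 libraries (log2 0.77 ± 0.09, adjusted p = 8.5e-07). Lamc1 (log2 0.54 ± 0.14, adjusted p = 0.018) and Hspg2 (0.54 ± 0.11, adjusted p = 0.0035) were higher in 7 of 8 each. Lamc1 kept its call in 9 of 16 alternative settings and lost it at E10 alone (log2 0.18, adjusted p = 0.79) and without the E12 library or either E11 25 µm library.

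Type IV collagen and Lama1 stayed near the level of the other pixels in the epithelium-rich class. Col4a1 had medians of 370 and 391 CPM (log2 -0.08 ± 0.07, adjusted p = 0.79), and Lama1 of 73.1 and 76.3 CPM (log2 0.02 ± 0.12, adjusted p = 0.99). Set directly against epithelium-rich pixels, vessel-rich pixels were higher in 5 of the 10 genes, where 3.21% of 7906 genes were: Col4a1 (log2 1.53 ± 0.19), Col4a2 (1.18 ± 0.23), Nid1 (1.08 ± 0.12), Hspg2 (0.58 ± 0.13) and Sparc (0.48 ± 0.07). Col4a2 lost its call without E10 50 µm replicate 2 or the E12 library. Lamb1 and Lamc1 did not pass there, with log2 values of 0.26 ± 0.12 and 0.01 ± 0.16.

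In the pixels highest for the EpCAM antibody, an epithelial surface protein, 0 of the 10 genes passed in edgeR or in DESeq2, and 0 had an unadjusted p under 0.05 in edgeR. The share of all 10703 genes called in edgeR was 0.794%, and 932 of them had an unadjusted p under 0.05. Lamb1 had the largest value, log2 0.30 ± 0.17 (adjusted p = 0.69), and Col4a1 was at 325, 449, 430.4 and 261 CPM against 322, 354, 426 and 390.3 CPM. Epithelium markers were at a median of 305 CPM in these pixels against 48.4 CPM, higher on 4 of 4 sections. Only 2 of these 4 sections entered the transcript-based class, where about 50.2% (median) of epithelium-rich pixels were also EpCAM-high.

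In neural-rich pixels, chosen by 8 neural progenitor genes, most members were lower. Of the 10 genes 7 fell, where 6.50% of 10701 genes did, in 10 libraries. Lamb1 fell most, 2.23-fold (log2 -1.16 ± 0.24, adjusted p = 0.011), in 10 of 10 libraries, from a median of 80.0 to 31.8 CPM. Nid2 (log2 -0.81), Col4a1 (-0.76), Nid1 (-0.66), Hspg2 (-0.62), Sparc (-0.62) and Col4a2 (-0.53) fell as well. Lamc1 (-0.34, adjusted p = 0.077) and Fn1 (-0.44, adjusted p = 0.14) did not pass. At E10 alone 3 of the 10 passed: Col4a1, Lamb1 and Sparc. Col4a1 kept its call in 10 of 18 alternative settings and lost it without E11 25 µm replicate 2 or any one of 5 of the 6 E10 libraries (all but E10 50 µm replicate 2), with an adjusted p of up to 0.17 in edgeR.

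Lama1 was the member whose log2 change in neural-rich pixels was above 0. It was at 96.6, 69.6 and 104.5 CPM in the E10 50 µm libraries against 85.4, 82.2 and 85.3 CPM in the other pixels. At E11 it was at 111 and 80.0 CPM at 25 µm against 66.2 and 64.5 CPM, and at 102 against 52.7 CPM in E11 10 µm replicate 1. At E12 it was at 41.4 CPM, from 18 counts, against 16.3 CPM. It was higher in 7 of 10 libraries, and the change did not pass the test (log2 0.24 ± 0.13, adjusted p = 0.28). As a description of a gene singled out after its values were seen, with no test, Lamb1 minus Lama1 was -1.59 ± 1.16 (SD, n = 10) and below 0 in 10 of 10 libraries. Col4a1 minus Lama1 was -1.02 ± 0.88 (9 of 10 below 0) and Lamc1 minus Lama1 -0.55 ± 0.82 (8 of 10).

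Markers of other tissues were lower in neural-rich pixels in 10 of 10 libraries: vessel markers had a median of 173 CPM against 293 CPM, mesenchyme markers 619 against 1164 CPM and mural markers 148 against 217 CPM. With mesenchyme-rich pixels left out, 6 of the 7 members kept their call, and Col4a1 did not pass (log2 -0.69, adjusted p = 0.052). The part of vessel content was not tested. Pixels rich in 8 neuron genes had lower levels of 8 of the 10 genes, but there 17.2% of 10730 genes were lower and 31.5% differed. The changes were smaller, from log2 -0.24 (Col4a2, adjusted p = 0.065) to -0.68 (Lamb1), and Lama1 was here among the genes that fell (-0.45 ± 0.13, adjusted p = 0.0060). Lamc1 kept its call there in 6 of 19 settings. Lama1 lost its call with DESeq2, which called 6 of the 10, and with the top 20% of pixels.

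Vessel-rich against neural-rich pixels gave the widest contrast, with 9 of the 10 genes higher where 9.95% of 7827 genes were. Col4a1 differed 4.64-fold (medians 995 and 235 CPM), Lamb1 4.25-fold, Nid1 3.51-fold and Col4a2 3.45-fold, each in 10 of 10 libraries. Lama1 had medians of 105.2 and 83.2 CPM (log2 0.24 ± 0.18, adjusted p = 0.44), and was higher in 5 libraries and lower in 5. Epithelium-rich exceeded neural-rich pixels in 5 of the 10 (4.97% of 8578 genes): Lamb1 (3.40-fold), Hspg2, Sparc, Lamc1 and Fn1. Leaving out E10 50 µm replicate 1 or 2 ended the call of Fn1 between vessel-rich and neural-rich pixels. Leaving out any E10 50 µm library or the E12 library ended that of Sparc between epithelium-rich and neural-rich pixels.

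The 5 laminin alpha chains, which give a laminin trimer its tissue type, are set beside Lama1 because the beta 1 and gamma 1 chains passed the test in heart-rich and epithelium-rich pixels and Lama1 did not. Over all tissue pixels Lama1 gave a median of 40.3% of the alpha chain counts and Lama4, the chain of endothelial and muscle laminins, 36.5%. Lama1 gave 33.3% to 60.6% in the 6 E10 libraries, 25.1% to 47.1% in the 4 at E11, and 8.94% at E12 (95% exact binomial interval 7.45 to 10.6%, 1309 counts, counting error only), where Lama4 gave 65.8%. In heart-rich pixels the median share of Lama4 was 51.7% and that of Lama1 14.6%. The Lama1 share there was 36.0%, 12.4%, 38.2%, 50.0% and 39.7% in the 5 E10 libraries and 4.81%, 4.60%, 14.6% and 4.37% in the 3 at E11 and the 1 at E12, so 4 of 5 E10 libraries lay above all later ones. The 50.0% is that of the E10 25 µm library, which held only 222 alpha chain counts over all its tissue pixels. Heart markers summed to 5243 to 18928 CPM in the heart-rich pixels at E10 and to 42665 to 65446 CPM at E11. The part of this in the shares was not tested. In neural-rich pixels the median shares of Lama4 and Lama1 were 28.8% and 56.5%. In epithelium-rich pixels Lama5, the main alpha chain of epithelial basement membranes, had a median of 16.3%, against 8.0% over all pixels.

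The tests of the alpha chains followed tissue too. Lama4 rose in vessel-rich (log2 1.37 ± 0.11) and heart-rich pixels (1.74 ± 0.33), Lama5 in epithelium-rich (1.76 ± 0.19) and EpCAM antibody-high pixels (1.96 ± 0.29), and Lama2 most in mesenchyme-rich pixels (1.51 ± 0.17), by the adjusted edgeR test. In neural-rich pixels Lama2 (log2 -1.01), Lama5 (-0.85) and Lama4 (-0.72) fell. Shares compare counts between genes of different length, so only their differences between classes should be read.

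**Figure D4:**
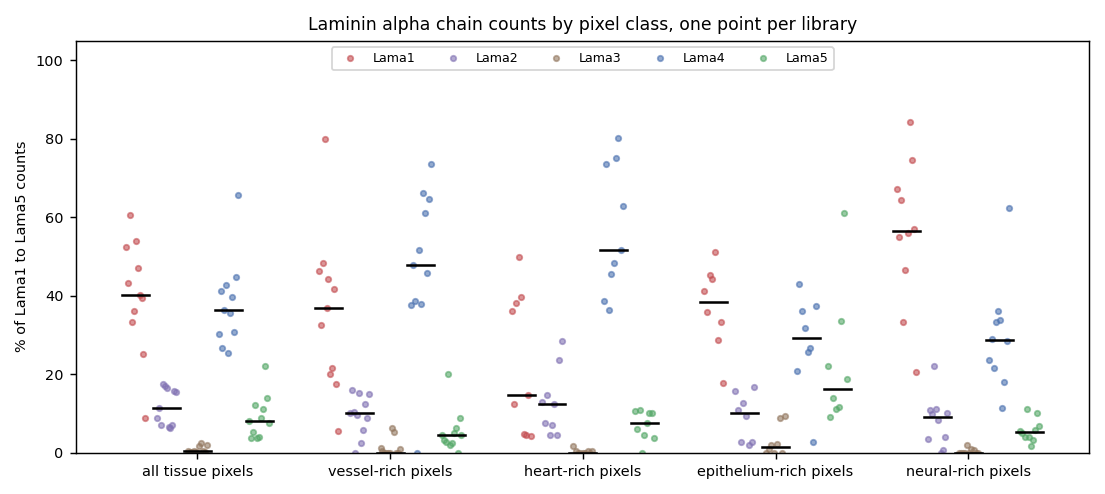
Share of the summed Lama1 to Lama5 counts (y axis, %) given by each alpha chain in all tissue pixels and in 4 marker-rich classes (x axis). Points are libraries and black lines are medians. The median of Lama4 is 51.7% in heart-rich pixels, and that of Lama1 is 56.5% in neural-rich pixels.

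Some tissue differences themselves changed between E10 and E11, tested as an interaction over the libraries of those stages. The rise in heart-rich pixels was larger at E11 for 4 of the 10 genes, where 2.97% of 11079 genes showed this. The log2 ratios of Col4a1 were 0.49, 0.36, 0.14, 0.51 and 0.53 at E10 and 1.47, 1.36 and 1.14 at E11, with no overlap (difference 1.09 ± 0.15), while the E12 library, not in this test, had -0.04. Nid2 (1.11 ± 0.28), Col4a2 (1.01 ± 0.22) and Lamb1 (0.85 ± 0.24) were the others. With only the deeper pixels 0 of these 4 passed, and Lamb1 kept its call in 5 of 15 settings. Heart markers summed to 42665 to 65446 CPM in heart-rich pixels at E11, against 5243 to 18928 CPM at E10 and 17293 CPM at E12. The E10 libraries also included pixels 50 µm wide, and the E11 libraries did not. The part of marker level and pixel width in these stage differences was not tested. In neural-rich pixels the ratio was lower at E11 for Nid1 (-1.15 ± 0.24) and Col4a2 (-0.88 ± 0.21), 2 of the 10, against 1.27% of 10686 genes. In vessel-rich pixels it was higher for Col4a2 (0.86 ± 0.18, adjusted p = 0.022), 1 of the 10, against 0.0582% of 10302 genes. For epithelium-rich pixels 0 of the 10 passed in edgeR (0.176% of 11370 genes). At an unadjusted p under 0.05 there were 4 of the 10 and 701 of all genes.

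The other basement membrane genes, a list of 64 laminin chains, collagens, glycoproteins, enzymes, receptors and proteases, moved in the same pixel classes. In vessel-rich pixels 28 of the 51 tested were higher, against 6.81% of all genes, and 1 was lower. Their median log2 change was 0.42, against -0.04 over all genes. The largest rises were in Itga1, a collagen receptor chain (log2 1.73), Col15a1, a collagen of the outer basement membrane (1.59), and Lama4. In heart-rich pixels 24 of 52 were higher, against 7.04% of all genes, and 1 was lower (median 0.52). The rises were led by Lama4, the laminin receptor Bcam (1.61) and Col4a5 (1.45). Mesenchyme-rich pixels had 34 of 50 higher, against 8.94% of all genes, and 0 lower (median 0.69). The laminin chain Lamc3 (1.78), the crosslinking enzyme Lox (1.60) and Lama2 led.

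In epithelium-rich pixels 10 of 53 were higher, against 1.55% of all genes, and 0 lower (median 0.16). These were led by Frem2, a protein that anchors embryonic epithelia (log2 2.07), Lama5, and Npnt, the integrin ligand nephronectin (1.63). In neural-rich pixels 33 of 49 were lower, against 6.50% of all genes, and 1, the netrin gene Ntn4 (log2 0.67), was higher (median -0.61). In the Panendothelial antibody-high pixels 16 of 50 were higher, against 3.47% of all genes, again led by Col15a1 (1.48) and Lama4 (1.34). Between libraries few of the list passed. From E10 to E11 over both widths 1 of 62, Lox, was lower (log2 -2.10) and 0 higher, where 3.60% of all genes differed. At E12 against E10 at 50 µm 4 of 62 were higher, where 1.93% of all genes were. These were Smoc2 (3.86), Egfl6 (3.50), Lox (2.42) and Plod1 (1.56), a collagen lysyl hydroxylase.

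Pixel by pixel, the members followed each other weakly, as sparse counts allow. Pearson's r of log2(count per 10000 + 1) with the vessel marker score had a median over the 11 libraries of 0.22 for Col4a1 (0.08 to 0.43), 0.13 for Col4a2, Nid1 and Sparc, and 0.03 for Lama1, Lamc1 and Nid2. Pixels of a library share depth and neighbours, so these are descriptions without a p. With mesenchyme markers the medians were 0.24 for Sparc and 0.22 for Col4a1. Of the member pairs, Col4a1 with Col4a2 had the highest median r, 0.15, and Col4a1 was the gene most like Col4a2 among 6041 genes compared (mean r 0.20). Of genes outside the 10, the most like were Col3a1, Cnn2 and Cd93 for Col4a1, Cd93, Col3a1 and Cdh5 for Col4a2, and Col3a1, Cd93 and Cnn2 for Nid1 (mean r 0.13 to 0.25, 8 to 11 libraries). For Hspg2 they were Flt1, Cd93 and Acta2, for Fn1 Acta2, Tagln and Actc1, for Sparc Fbn2, Col3a1 and Acta2, and for Lamb1 Col3a1, Tnni1 and Acta2 (0.10 to 0.23). For Nid2 they were the heart muscle genes Myl7, Myh7 and Tnni1 (0.09 to 0.10), and for Lama1 Marcks, Pltp and Vtn (0.06 to 0.07) at values too low to read.

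Col4a1 and Sparc were the most spatially ordered of the 10 genes. Moran's I, the correlation of a pixel with its grid neighbours, had a median of 0.21 for each, with Col4a1 from 0.08 (E11 10 µm replicate 2) to 0.43 (E10 50 µm replicate 2). Col4a1 lay in the top 5% of genes in 9 of 11 libraries and Sparc in 6. Lamc1 had a median of 0.01 and was in the top 5% in none, and 2.43% to 31.8% of pixels held a count of it. The map of E10 50 µm replicate 1 shows the Col4a1 signal in patches that also carry vessel and mesenchyme markers, and low values where neural markers are high.

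**Figure D5:**
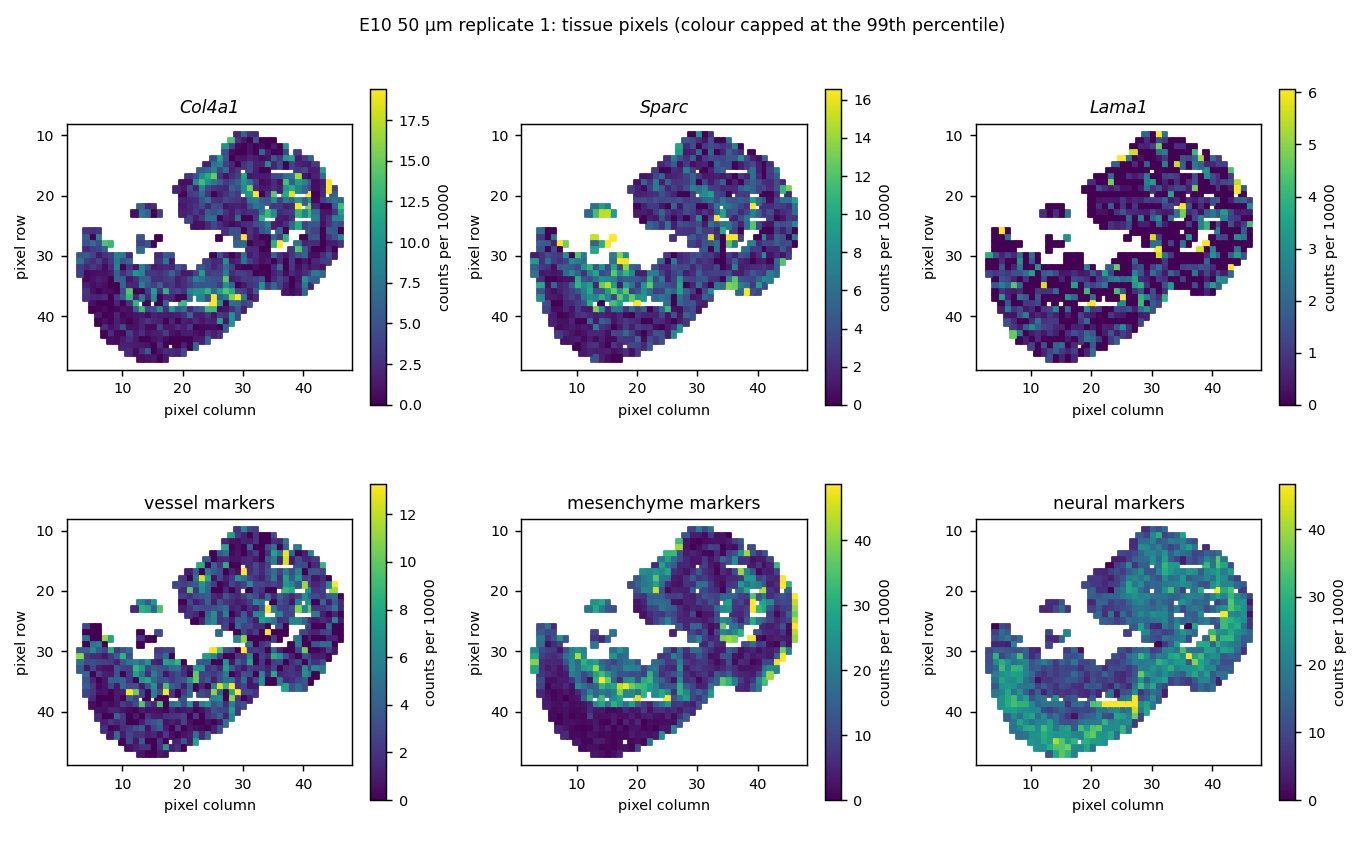
Tissue pixels of E10 50 µm replicate 1, placed by grid column and row (x and y axes), coloured by counts per 10000 of Col4a1, Sparc, Lama1 and of the vessel, mesenchyme and neural marker lists. Col4a1 had a Moran's I of 0.39 in this library, and the white gaps are grid positions not kept as tissue. A short stretch of pixels beside such a gap is high for the neural markers.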

How the data were processed

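Transcripts were counted per pixel in 11 libraries and antibody tags in 4. The authors deposited raw counts per pixel and gene, with CASAVA 1.8.2 and genome build GRCh38 named per the submitters' processing notes; the gene symbols are those of mouse, and the aligner, annotation and use of strand are not given in the sources used here. Replicates are separate libraries, numbered in accession order, which at E11 is also the order of the numbers in the labels.

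Pixels whose total fell below 0.1 times their library's 95th percentile were dropped as lying off the tissue. Marker lists (vessel, epithelium, heart, neural, neuron, mesenchyme, cartilage, mural, red cell, liver, muscle, pigment, macrophage, mesothelium, parietal yolk sac) were set by hand. The 10 members, the lists and the tests were chosen with earlier results of these data known. Genes outside the 10 are named by rule: of the other basement membrane genes called, up to 3 with the largest log2 change in each direction per comparison, and up to 3 non-member genes with the highest mean Pearson r across tissue pixels, among genes seen in 5% of pixels in at least 8 libraries. Over all libraries the lists not used above summed to 117 to 904 CPM (cartilage), 3.77 to 305 (muscle), 3.08 to 158 (pigment), 42.0 to 136 (macrophage) and 39.96 to 236 (mesothelium).

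Counts summed over tissue pixels were fitted with edgeR 4.0.16 (limma 3.58.1, R 4.3.3): quasi-likelihood test, TMM scaling, filterByExpr, 6 group means and Benjamini-Hochberg adjustment over all genes tested, with a threshold of 0.05. Pixel classes were fitted as rich against other sums with the library as a block. Per-library log2 ratios add 0.5 counts. DESeq2 1.42.0 was an alternative. Both fits were tested on simulated data. Replicate libraries differed far beyond counting noise in all 6 pairs (chi-square over degrees of freedom 24.6 to 70.0). Libraries with fewer than 30 rich pixels were left out of a class. Figures and remaining tables used Python 3.11.15 with numpy 2.4.6, pandas 2.3.3 and scipy 1.17.1.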

Additional observations from a re-analysis of the deposited data

Results flagged for a closer look

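Among 90 groups of 4 to 10 library values, 4 held a library far from the others, where chance flags about 1 in 20. The log2 ratio of Lama1 in epithelium-rich pixels was 1.19 at E12, with the next library at 0.24 (n = 8). That of Nid1 between vessel-rich and epithelium-rich pixels was 2.75 in E11 10 µm replicate 1, with the next at 1.49 (n = 8). That of Lamb1 between vessel-rich and heart-rich pixels was -2.33 in E11 10 µm replicate 2, with the next at -0.55 (n = 9). That of Lamc1 in EpCAM antibody-high pixels was 1.56 at E10 25 µm, with the next at 0.01 (n = 4).

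In 7 cases the tissue difference of a member differed between E11 and E10 in the edgeR interaction test. For heart-rich pixels, whose heart marker levels also differed between the stages, these were Col4a1 (1.09), Nid2 (1.11), Col4a2 (1.01) and Lamb1 (0.85). For neural-rich pixels they were Nid1 (-1.15) and Col4a2 (-0.88), and for vessel-rich pixels Col4a2 (0.86). Values are E11 minus E10 on the log2 scale.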

How the results depend on the processing

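Of 361 recomputed counts of called members, 322 stayed within 1.5 times the main count and 39 moved. Of 1458 recomputed values of called members, 1321 kept their call, 137 lost it and 0 reversed; the cause was not tested. The fall of Lama1 at E12 kept its call in all 14 alternatives. At E12 the count of 1 became 2 with DESeq2 and 2 without the filter on low counts, and 1 to 2 with a library left out (2 without each of the 4 10 µm libraries). From E10 to E11 at 10 µm, 0 became 0 to 1 with a library left out (1 without E11 10 µm replicate 1). In epithelium-rich pixels 3 became 1 with the top 20% of pixels. In neural-rich pixels 7 became 3 at E10 alone and 3 with the top 5% of pixels. Between vessel-rich and heart-rich pixels 3 became 1 with the deeper pixels and 5 without the filter. Between epithelium-rich and neural-rich pixels 5 became 9 without the filter. Between vessel-rich and mesenchyme-rich pixels 3 became 0 with the deeper pixels and 1 at E10 alone.

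The differences by stage moved most often. For vessel-rich pixels 1 became 0 with the deeper pixels, 0 with mesenchyme-rich pixels left out, 0 with DESeq2, 0 with the top 5% of pixels and 3 without the filter, and 0 to 2 with a library left out (2 when E11 10 µm replicate 1 was dropped; 0 when E10 50 µm replicate 3, the E10 25 µm library or E11 25 µm replicate 2 was). For epithelium-rich pixels 0 became 2 with the top 5% and 0 to 1 with a library left out (1 without E11 10 µm replicate 1). For heart-rich pixels 4 became 0 with the deeper pixels, 2 with the top 20%, 1 with the top 5% and 2 to 4 with a library left out (2 without E11 25 µm replicate 1). For neural-rich pixels 2 became 0 with the deeper pixels, 1 with DESeq2, 4 without the filter, 4 with the top 20%, 1 with the top 5% and 0 to 7 with a library left out (7 without E11 10 µm replicate 1, and 0 without either E11 25 µm library).

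E11 replicate numbers are shared between widths. Same-numbered libraries deviated together with r = 0.125 over 11376 genes. With only 2 pairs, and no embryo given, this cannot tell whether they share more than a number. With the replicate block, the comparison of widths at E11 called 297 genes against 378, and 0 members in both. Shallow libraries limit the smaller classes, where a member may rest on fewer than 10 counts.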
